A study of Homo sapiens with 70 samples.

Results

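The genes described here are 38 members of glucose metabolism and of the response to low oxygen, chosen by name from the 44503 gene identifiers of each deposited count table. The list was set by name, with no threshold on the measured values. They are the glucose and lactate carriers SLC2A1, SLC2A3, SLC16A1 and SLC16A3. They include 9 genes of the preparatory phase of glycolysis, HK1, HK2, GPI, PFKL, PFKM, PFKP, ALDOA, ALDOC and TPI1. A further 8 genes carry the payoff phase and the reduction of pyruvate to lactate, GAPDH, PGK1, PGAM1, ENO1, ENO2, PKM, LDHA and LDHB. The regulators of flux are PFKFB3, PFKFB4, PDK1 and PDK3, the oxygen-sensing genes are HIF1A, EGLN1 and EGLN3, and 10 other genes are known targets of hypoxia-inducible factor, namely CA9, CA12, VEGFA, ADM, BNIP3, BNIP3L, NDRG1, P4HA1, ANKRD37 and KDM3A.

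Glycolysis turns glucose into pyruvate in the cytoplasm. Pyruvate then enters mitochondria, or lactate dehydrogenase reduces it to lactate, which leaves the cell through monocarboxylate carriers. Hypoxia-inducible factor 1 pairs the oxygen-regulated subunit HIF1A with ARNT and activates most genes of the pathway, whereas prolyl hydroxylases such as EGLN1 mark HIF1A for destruction when oxygen is present. Much of that control acts on the HIF1A protein, which RNA-seq does not measure. Senescence, a lasting arrest of proliferation, is known to go with altered glucose use.

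The study sequenced polyadenylated RNA in 70 libraries of 11 groups. IMR90 cells, fetal lung fibroblasts grown at 5% O2, carried an ER:HRAS G12V fusion in every group, which 100 nM 4-hydroxytamoxifen (4OHT) for 6 days switches on to give oncogene-induced senescence (OIS). The HMGA1 experiment held untreated cells with the empty miR30 vector (Grow), untreated cells with an shRNA against HMGA1, an architectural chromatin protein (Grow-shA1), and the same 2 lines after 4OHT (OIS and OIS-shA1), with 8 libraries each. The experiment on the transcription factors C/EBPβ and p53 held untreated and 4OHT-treated cells with both empty vectors (Grow-v-v and OIS-v-v) and treated cells with shCEBPB (OIS-shCEBPB), with shp53 (OIS-shp53) or with the shRNAs together (OIS-shCEBPB-shp53), at 5 libraries per group. H1299, a non-small cell lung cancer line grown at atmospheric O2, was sequenced with the empty vector (H1299, n = 7) and with the shRNA against HMGA1 (H1299-shA1, n = 6). Each knockdown used 1 shRNA sequence, so off-target effects are not separated from those of the target, and no knockdown was made in untreated cells of the second experiment. No group was grown at another oxygen level within a cell line, so these data hold no contrast of oxygen levels within a line.

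The core of the hypoxia response element, the letters ACGTG or GCGTG on either strand, was searched in the 250 bases upstream of each RefSeq start site (GRCh38.p14). Of the 61 windows of 33 members, 37 (60.7%) held it, and 28 of the 33 members (84.8%) had it in at least 1 window, against 43.2% of all 35116 windows and 47.4% of 27305 genes. Members had more windows per gene than all genes, which raises the share with at least 1 match. Part of the list was also chosen as known targets of hypoxia-inducible factor, and the difference was not tested. The longer palindrome CACGTG, which contains the core on both strands, was in 8 of the 61 windows (13.1%) and in 6.34% of all windows. The windows of 3 members whose levels the comparisons turn on are printed from 5′ to 3′ on the strand of the gene, ending 1 base before the start site, with the matched letters in capitals. CA9, which encodes a cell-surface carbonic anhydrase, is at chr9:35673678-35673927 (plus strand) and has 1 match, whose first letter lies 18 bases before the start site. ALDOC, the brain-type aldolase, is at chr17:28576896-28577145 (minus strand) and has 5 matches, of which the overlapping pair at its far end forms CACGTG. HK2, the inducible hexokinase, is at chr2:74833877-74834126 (plus strand) with 3 matches. A match is a description of letters and not a measured binding site.
CA9: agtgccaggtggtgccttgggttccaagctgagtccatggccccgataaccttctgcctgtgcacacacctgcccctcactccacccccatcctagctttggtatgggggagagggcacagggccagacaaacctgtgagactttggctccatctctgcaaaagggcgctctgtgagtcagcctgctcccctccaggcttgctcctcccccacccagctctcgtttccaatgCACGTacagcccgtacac
ALDOC: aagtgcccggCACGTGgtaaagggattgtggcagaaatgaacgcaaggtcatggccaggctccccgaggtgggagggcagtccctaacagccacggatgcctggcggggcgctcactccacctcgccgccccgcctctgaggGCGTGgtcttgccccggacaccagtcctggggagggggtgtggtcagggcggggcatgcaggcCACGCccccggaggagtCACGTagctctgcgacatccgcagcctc
HK2: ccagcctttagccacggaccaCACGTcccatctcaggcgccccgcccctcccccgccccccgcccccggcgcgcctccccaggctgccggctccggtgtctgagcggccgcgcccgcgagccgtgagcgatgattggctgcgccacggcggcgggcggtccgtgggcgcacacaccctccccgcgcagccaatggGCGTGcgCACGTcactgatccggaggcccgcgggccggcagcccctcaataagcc

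Counts assigned to genes ranged from 13904974 to 22136571 per library in the HMGA1 experiment, apart from OIS replicate 4 with 1903607, from 14544053 to 24890797 in the C/EBPβ and p53 experiment, and from 17747670 to 23649765 in H1299. The members together took between 1.56% of counts (mean of Grow-shA1) and 2.05% (mean of OIS-shp53). HMGA1 RNA fell on the log2 scale by 3.79 in Grow-shA1, 3.62 in OIS-shA1 and 2.31 in H1299-shA1, and CEBPB RNA by 3.06 in OIS-shCEBPB and 3.19 with both shRNAs. All 9 fibroblast markers (COL1A1, VIM, DCN and others) had a mean of at least 1 CPM (counts scaled to the total of the library) in each IMR90 group, each of 4 leukocyte markers had a mean below 1 CPM in every group, and in H1299 the epithelial genes EPCAM, CDH1, KRT19 and KRT7 were below 1 CPM while KRT8 and KRT18 were not. The summed level of the 9 fibroblast markers was lower after 4OHT, with 48599 to 62172 CPM in Grow against 10732 to 12621 in OIS and 47324 to 61846 in Grow-v-v against 18635 to 26922 in OIS-v-v; its part in the differences described for OIS was not tested. In bulk RNA a smaller number of cells of a type and less RNA per cell cannot be told apart.

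Per length of exon (RPKM, which is CPM divided by the exon length in kilobases), the members spanned a wide range in Grow. GAPDH was highest at 1034 ± 27.7 RPKM (SD, n = 8), followed by PKM at 612 ± 12.6, ENO1 at 529 ± 8.16 and LDHA at 388 ± 20.5. The mean ± SD of these 4 genes did not overlap. In Grow-v-v GAPDH was highest at 2375 ± 372 RPKM, and TPI1 (345 ± 43.3) and ALDOA (299 ± 27.4) had higher means than LDHA (270 ± 15.7). The low end in Grow held CA12 at 2.21 ± 0.416, CA9 at 1.06 ± 0.383, PDK3 at 1.01 ± 0.286 and ANKRD37 at 0.922 ± 0.228 RPKM. Of these, CA9, PDK3 and ANKRD37 lay within 1 SD of each other. EGLN3, a prolyl hydroxylase that low oxygen induces in many cells, was at 0.0299 ± 0.0133 RPKM and failed the filter on low counts in every comparison. CA9 and CA12 failed it in H1299, where CA9 had at most 1 read in a library. Hence 37 of the 38 members were tested in IMR90 cells and 35 in H1299. For 15 of the 38 members an exon overlaps that of a gene on the opposite strand (among them CA9 with ARHGEF39, PDK1 with PDK1-AS1, HK2 with HK2-DT, SLC16A3 with CSNK1D and ALDOC with a gene without a symbol). Reads were counted without regard to strand where the settings are stated, so reads of the partners cannot be told apart in the shared stretches. PGAM1 and BNIP3 each have 2 counted pseudogenes with which they can share reads.

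**Figure D1:**
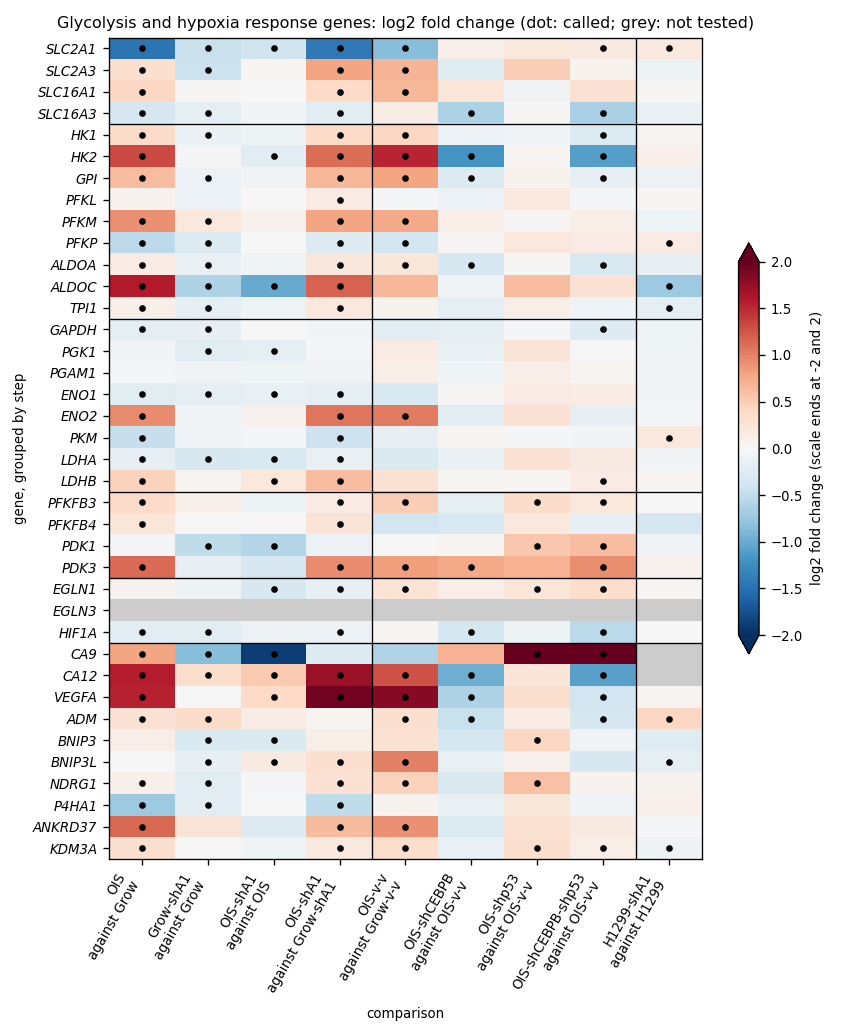
Log2 fold change of each of the 38 genes (rows, grouped by metabolic step) in the 9 comparisons (columns); black dots mark an adjusted p under 0.05 and grey cells were not tested. HK2, VEGFA and CA12 are red in all 3 comparisons of senescent with growing cells, SLC2A1 is blue in them, and CA9 ranges from -1.89 in OIS-shA1 to 3.10 in OIS-shp53. Each of these CA9 values rests on a group near the floor, OIS-shA1 in the first and OIS-v-v in the second.

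The comparison of OIS with Grow asks how oncogene-induced senescence changes the pathway. Of 37 members 21 rose and 9 fell (adjusted p under 0.05, edgeR quasi-likelihood test with Benjamini-Hochberg adjustment over all genes), where 38.8% of the 13304 genes tested rose and 35.9% fell. The members' median log2 fold change was 0.17, beside 0.027 over all genes. By step, 7 of 9 preparatory genes rose and 1 fell, 2 of 8 payoff and lactate dehydrogenase genes rose and 4 fell, 3 of 4 regulators of flux rose, 2 of 4 carriers rose and 2 fell, and 7 of the 10 other HIF targets rose and 1 fell. These values rest on TMM factors, which assume that most genes do not change. Scaled by library size only, all genes had a median of 0.22 and the split became 28 members higher and 4 lower, beside 52.3% and 26.8% of genes.

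SLC2A1 encodes GLUT1, the basal glucose carrier. Its level was 492 to 549 CPM (median 509) in Grow and 161 to 195 CPM (median 182) in OIS. No library overlapped, and the fall was 2.76-fold (log2 fold change -1.46 ± 0.043 (SE), adjusted p = 2.77e-22). HK2, which phosphorylates glucose and is the inducible hexokinase, was 103 to 129.9 CPM (median 113) in Grow and 262 to 293 CPM (median 276) in OIS, again without overlap (log2 fold change 1.32 ± 0.042 (SE), adjusted p = 2.31e-21). VEGFA, the angiogenic growth factor, was 44.5 to 59.2 CPM (median 52.6) in Grow and 137 to 157 CPM (median 145) in OIS (log2 fold change 1.54 ± 0.058 (SE), adjusted p = 1.11e-19). CA12, a membrane carbonic anhydrase that handles acid at the cell surface, was 11.7 to 21 CPM (median 16.3) in Grow and 41.5 to 53.9 CPM (median 46.9) in OIS (log2 fold change 1.57 ± 0.088 (SE), adjusted p = 1.37e-15). The groups were separate for each of these genes, as they were for ALDOC, at 14.3 to 17.1 CPM (median 15.5) against 36.2 to 51.8 CPM (median 44.1) (log2 fold change 1.59 ± 0.063 (SE), adjusted p = 3.72e-19). P4HA1, a prolyl hydroxylase that modifies collagen, was 623 to 732 CPM (median 699) in Grow and 360.5 to 474 CPM (median 404) in OIS (log2 fold change -0.72 ± 0.052 (SE), adjusted p = 3.74e-13). PFKP, the platelet-type phosphofructokinase, was 437 to 470.1 CPM (median 449.9) in Grow and 224 to 342 CPM (median 308) in OIS (log2 fold change -0.52 ± 0.055 (SE), adjusted p = 1.92e-09). PKM, pyruvate kinase, was 3293 to 3508 CPM (median 3447) and 2139 to 2571 CPM (median 2455) (log2 fold change -0.46 ± 0.041 (SE), adjusted p = 5.1e-11). Each of these 3 genes was lower in every OIS library than in every Grow library.

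Among the other members, rises were called for ANKRD37 (1.15 ± 0.15, adjusted p = 5.03e-08), PDK3 (1.13 ± 0.16, adjusted p = 1.96e-07), ENO2 (0.95 ± 0.056, adjusted p = 4.02e-15), PFKM (0.92 ± 0.042, adjusted p = 1.25e-17), GPI (0.61 ± 0.041, adjusted p = 6.69e-14), LDHB, SLC16A1, HK1, PFKFB3, KDM3A, SLC2A3, ADM, PFKFB4 and CA9. The abundant payoff-phase genes GAPDH, ENO1 and LDHA and the lactate exporter SLC16A3 had log2 fold changes from -0.33 to -0.16, and HIF1A itself was at -0.22 ± 0.06, adjusted p = 0.00191. All of these were called lower, and libraries of the groups overlapped for LDHA and HIF1A. LDHA was at -0.16 with TMM factors and at 0.028 with library sizes alone, so its direction depended on the scaling, as did those of PGK1, PGAM1 and PDK1, which were not called. With library sizes alone 4 members were called lower in place of 9, so calls of other falls depended on the scaling too. The calls of ALDOA, TPI1 and NDRG1 (0.17, 0.12 and 0.10) were lost when single libraries were left out. For ALDOA this was Grow replicate 6 (0.13, adjusted p = 0.0596), for NDRG1 Grow replicates 2, 6, 7 and 8 (0.069 to 0.089) and for TPI1 Grow replicates 2, 6, 7 and 8 and OIS replicates 1, 5 and 8 (0.088 to 0.11). The other 27 calls held without any 1 library, the shallow OIS replicate 4 included.

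**Figure D2:**
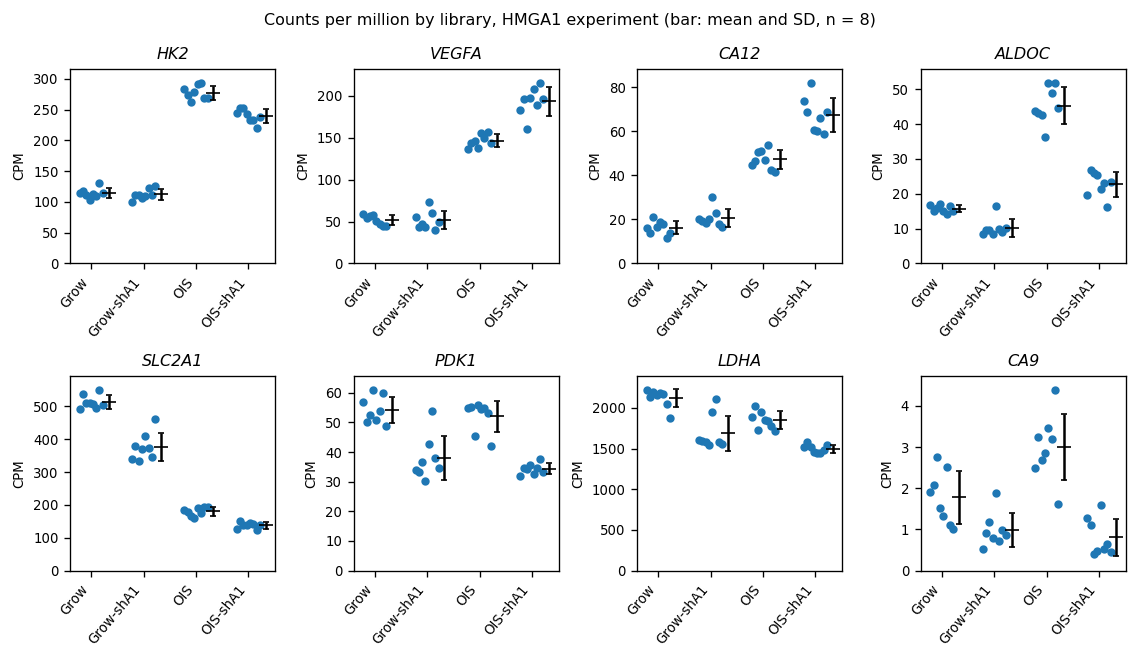
CPM of 8 members in each of the 8 libraries of the 4 groups of the HMGA1 experiment (circles), with mean and SD beside them; each panel starts at 0. HK2, VEGFA, CA12 and ALDOC are higher and SLC2A1 is lower after 4OHT, and PDK1, LDHA, ALDOC and CA9 sit lower in OIS-shA1 than in OIS.

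The second experiment repeated the contrast in cells that carried both empty vectors and shares no library with the first. There 18 of 37 members rose and 2 fell, beside 22.7% of all genes that rose and 23.2% that fell, and with the replicate number as a block 19 rose and 4 fell (24.8% and 24.9% of genes). Leaving out OIS-v-v replicate 4 or replicate 5 also gave 4 lower members. Within replicates 1 to 3, 21 rose and 9 fell, beside 33% and 33.8% of genes, and within replicates 4 and 5, 18 rose and 3 fell, beside 20.2% and 20.3% of genes. The 16 members that rose in both experiments were HK1, HK2, GPI, PFKM, PFKFB3, ALDOA, ENO2, SLC2A3, SLC16A1, PDK3, CA12, VEGFA, ADM, NDRG1, ANKRD37 and KDM3A, and PFKP and SLC2A1 fell in both. The 5 that rose in the first alone were PFKFB4, ALDOC, TPI1, LDHB and CA9, the 7 that fell in the first alone were GAPDH, ENO1, PKM, LDHA, SLC16A3, HIF1A and P4HA1, and BNIP3L and EGLN1 rose in the second alone. These sets hold for the fit over all 5 replicates, in which no member was called in opposite directions in the 2 experiments, and over all genes 5164 of the 5292 called in both had the same direction. Within replicates 1 to 3, TPI1 and LDHB were called higher and ENO1, LDHA and HIF1A lower (HIF1A at -0.17, adjusted p = 0.00721), as in the first experiment, and within replicates 4 and 5 ALDOC was called higher and ENO1 lower. In the opposite direction to the first experiment, PFKFB4 (-0.69, adjusted p = 4.05e-08) and CA9 (-1.81, adjusted p = 0.00129) were called lower and SLC16A3 (0.29, adjusted p = 2.44e-05) higher within replicates 1 to 3. CA9 had means there of 1.73 CPM in Grow-v-v and 0.484 CPM in OIS-v-v, so it passed the filter through Grow-v-v. The size of its fall rests on OIS-v-v values near the floor. The replicate block called LDHB higher and LDHA and PFKFB4 lower.

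VEGFA was at 58.1, 62.7, 60.6, 52.6 and 43.8 CPM in Grow-v-v replicates 1 to 5 and at 179, 186, 169, 220.0 and 219.9 in OIS-v-v (log2 fold change 1.82 ± 0.12 (SE), adjusted p = 1.46e-07). HK2 was at 73.8, 85.6, 75, 63.9 and 45.1 CPM in Grow-v-v and 179.5, 189.8, 168, 213 and 225 in OIS-v-v (log2 fold change 1.52 ± 0.15 (SE), adjusted p = 5.55e-06). Both genes were higher in every treated library. For SLC2A1 the values were 367, 379, 383, 391 and 372 in Grow-v-v and 219, 204, 204, 201 and 208 in OIS-v-v, so that the fall was 1.81-fold (log2 fold change -0.86 ± 0.067 (SE), adjusted p = 8.07e-07). CA12 rose from 14.8, 15, 12.6, 12.2 and 10.4 to 25.8, 28.9, 29.8, 32.5 and 39 CPM (log2 fold change 1.28 ± 0.13 (SE), adjusted p = 8.47e-06), and ENO2, the neuron-type enolase, from 87.4, 105, 101, 105 and 131 to 200.1, 187, 199, 232 and 267 (log2 fold change 1.05 ± 0.13 (SE), adjusted p = 2.95e-05). PFKP was at 458, 438, 455, 550.3 and 539 CPM in Grow-v-v and 344, 339.8, 364, 395 and 409.8 in OIS-v-v (log2 fold change -0.38 ± 0.098 (SE), adjusted p = 0.00625). The groups overlapped for none of these 6 genes. The calls of ALDOA, EGLN1 and NDRG1 were lost by leaving out any of 8, 7 and 6 of the 10 libraries (adjusted p up to 0.110). BNIP3L, which marks mitochondria for removal, rose here (1.01 ± 0.27, adjusted p = 0.00867) and not in the first experiment (0.0048, adjusted p = 0.945), and ALDOC, called in the first, was at 0.66 ± 0.31, adjusted p = 0.0997 here. Whether these effects differ between the experiments was not tested.

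Within the second experiment the libraries of replicates 1 to 3 stood apart from those of replicates 4 and 5. After the group means were removed, the first principal component (36.7% of the variance of log2 values over genes) was below 0 in all 15 libraries of replicates 1 to 3 and above 0 in all 10 of replicates 4 and 5. The labels name 2 library kits and 2 instruments for the series but do not assign them to libraries, and what separates the sets was not tested. In OIS-shCEBPB 32 of the 37 members that passed the filter on low counts were higher in both of replicates 4 and 5 than in all of replicates 1 to 3 and 3 were lower, beside 28.4% and 24.8% of 14037 genes. In OIS-shp53 6 were higher and 18 lower, beside 28.4% and 28.8% of genes. ALDOC in OIS-v-v was at 15.7, 12.9, 14.9, 39.6 and 38.4 CPM and LDHA at 1036, 932, 1095, 1491 and 1420.1, with the last 2 values above the first 3 in both. ALDOC accordingly had a log2 fold change in OIS-v-v of -0.22 ± 0.10, adjusted p = 0.0659, within replicates 1 to 3 and of 1.56 ± 0.16, adjusted p = 1.39e-06, within replicates 4 and 5. The results of this experiment are therefore given within each set as well.

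The share of an isozyme in its pair differed between growing and senescent cells for several steps, also where both isozymes rose, as HK1 and HK2 did. By RPKM, HK2 made up 31.7% ± 1.15 (SD) of hexokinase 1 and 2 transcripts in Grow and 47.3% ± 1.14 in OIS, and 23.8% ± 5.4 in Grow-v-v and 40.1% ± 3.34 in OIS-v-v. SLC2A3, which encodes the high-affinity carrier GLUT3, went from 8.22% ± 0.614 to 23.7% ± 1.75 of its pair with SLC2A1, while its own level went from 11.8 ± 1.01 to 14.4 ± 0.563 RPKM and that of SLC2A1 from 132 ± 5.21 to 46.5 ± 3.33 RPKM. Among phosphofructokinases PFKM, the muscle type, went from 8.17% ± 0.434 to 18.6% ± 1.96 and PFKP from 78.5% ± 0.6 to 65.1% ± 1.27. ENO2 went from 5.6% ± 0.468 to 11.7% ± 0.797 of enolase 1 and 2, and LDHB, the subunit that prefers lactate as substrate, from 22% ± 0.91 to 30.3% ± 1.17 of the lactate dehydrogenase pair. ALDOA remained the bulk of its pair, with ALDOC at 1.87% ± 0.0623 in Grow and 4.79% ± 0.257 in OIS, and at 1.76% ± 0.348 in Grow-v-v and 2.34% ± 1.34 in OIS-v-v.

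The remaining pairs are given for the same groups. PFKFB3, which makes the activator of phosphofructokinase, was 78% ± 2.1 of PFKFB3 and PFKFB4 in Grow and 79.4% ± 1.65 in OIS, a difference within their SDs, but 67.1% ± 3.77 in Grow-v-v and 79.2% ± 4.04 in OIS-v-v, where no library overlapped. SLC16A1, the carrier MCT1 for lactate and pyruvate, was 9.57% ± 0.832 of its pair with SLC16A3 in Grow and 15.7% ± 3.54 in OIS. PDK3 was 9.42% ± 2.39 and 18.4% ± 3.53 of the pyruvate dehydrogenase kinases measured here, CA12 68.3% ± 6.16 and 78.5% ± 4.87 of the carbonic anhydrases, and BNIP3 52.5% ± 1.19 and 55% ± 3.9 of BNIP3 and BNIP3L. In the second experiment BNIP3 was at 61.8% ± 6.51 in Grow-v-v and 49.2% ± 9.18 in OIS-v-v, with overlapping libraries. EGLN1 was 99.8% ± 0.111 of its pair with EGLN3.

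**Figure D3:**
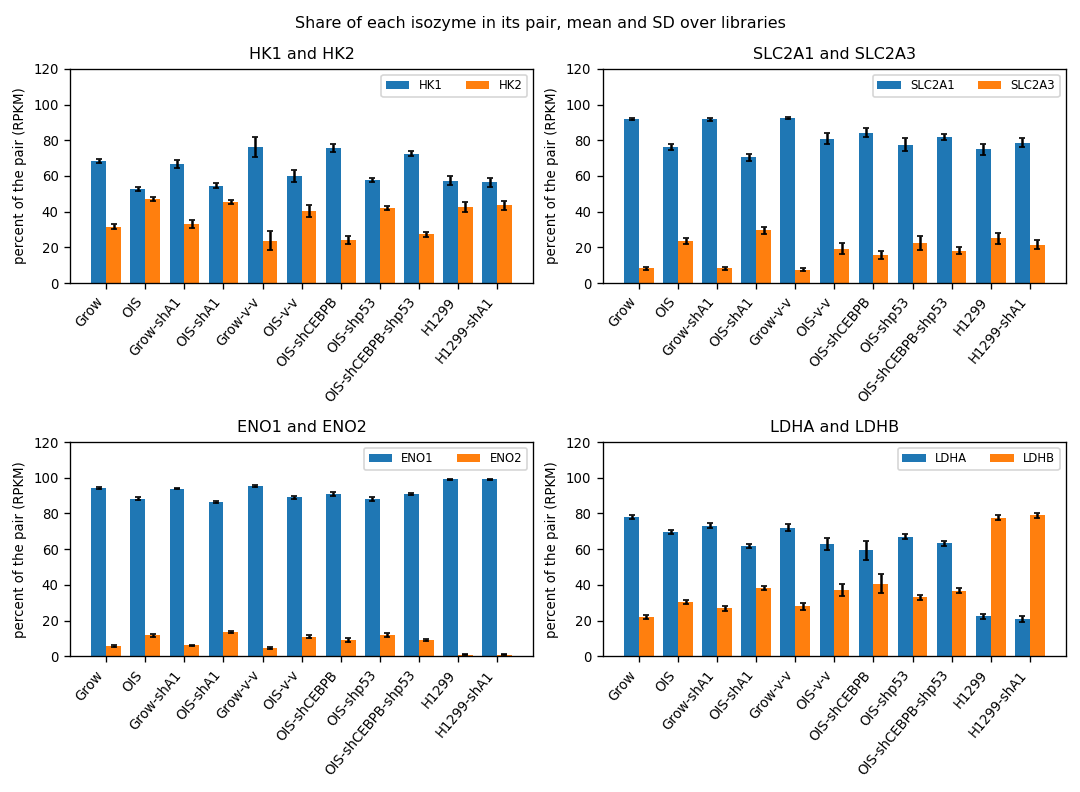
Mean share (bars, percent of summed RPKM; error bars, SD over libraries) of each isozyme in 4 pairs across the 11 groups. HK2 and SLC2A3 take larger shares after 4OHT, HK2 is lower in OIS-shCEBPB than in OIS-v-v, at 24.2% ± 2.13, and LDHB is the larger of its pair in H1299 (77.7% ± 1.26).

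Depletion of HMGA1 in growing cells lowered most of the members that it moved. In Grow-shA1 against Grow, 20 of 37 members fell and 3 rose, where 15.1% of the 13072 genes tested fell and 14.8% rose, and the members' median log2 fold change was -0.15 (0.0067 over all genes). By step, 6 of 9 preparatory genes, 4 of 8 payoff genes and 3 of 4 carriers fell. The summed fibroblast markers were also lower, at 35588 to 42976 CPM in Grow-shA1, and their part in these values was not tested. Of the 9 markers 6 were called lower and 2 higher. FN1 fell most (-0.64 ± 0.068, adjusted p = 4.8e-08) and DCN rose most (0.44 ± 0.077, adjusted p = 7.4e-05). PDK1, the kinase that shuts pyruvate dehydrogenase, was 48.7 to 60.8 CPM (median 53.3) in Grow and 30.4 to 53.9 CPM (median 35.6) in Grow-shA1 (log2 fold change -0.51 ± 0.083 (SE), adjusted p = 3.04e-05). Here 1 library of Grow-shA1, replicate 6, reached the Grow range. SLC2A1 fell from the Grow levels above to 335 to 462 CPM (median 371) without overlap (log2 fold change -0.44 ± 0.052 (SE), adjusted p = 2.73e-07). ALDOC was 8.37 to 16.4 CPM (median 9.6) in Grow-shA1 (log2 fold change -0.62 ± 0.10 (SE), adjusted p = 4.59e-05), and CA9 was 1.02 to 2.75 CPM (median 1.71) in Grow and 0.517 to 1.88 CPM (median 0.887) in Grow-shA1 (log2 fold change -0.85 ± 0.25 (SE), adjusted p = 0.0115). In both genes Grow-shA1 replicate 5 lay within the Grow range, as did replicate 3 for CA9. CA9 passed the filter on low counts through Grow, and its Grow-shA1 values lay near the floor. Smaller falls were called for SLC2A3, LDHA, BNIP3, PFKP, PGK1, NDRG1, HIF1A, P4HA1, SLC16A3, TPI1, ENO1, BNIP3L, GAPDH, ALDOA, HK1 and GPI. The calls of GPI, ALDOA and NDRG1 were lost by leaving out any of 10, 8 and 12 of the 16 libraries (adjusted p up to 0.0907).

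Grow-shA1 replicate 5 had the highest level of its group for GPI, PFKP, PFKFB3, ALDOA, ALDOC, ENO1 and CA12. The members that rose were ADM, PFKM and CA12. ADM, the vasodilator peptide adrenomedullin, was 40.9 to 48.5 CPM (median 47.4) in Grow and 50.5 to 66.4 CPM (median 60.4) in Grow-shA1 (log2 fold change 0.36 ± 0.057 (SE), adjusted p = 1.91e-05). PFKM was 65.9 to 76.9 CPM (median 69.8) and 75.1 to 89.5 CPM (median 81.4) (log2 fold change 0.21 ± 0.043 (SE), adjusted p = 0.000449). CA12 was 16.5 to 29.9 CPM (median 19.6) in Grow-shA1 (log2 fold change 0.35 ± 0.11 (SE), adjusted p = 0.0203). The groups were separate for ADM and overlapped for PFKM and CA12. The call of CA12 was lost without Grow-shA1 replicate 5 (0.25, adjusted p = 0.0519).

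In senescent cells with the HMGA1 shRNA, CA9 and ALDOC fell most. In OIS-shA1 against OIS, 10 of 37 members fell and 4 rose, where 17.1% of genes fell and 18.8% rose, with a median of -0.08 over the members and -0.00022 over all genes. With library sizes alone, 22 fell and 3 rose, beside 30.3% and 11.7% of genes. CA9 was 1.62 to 4.37 CPM (median 3.03) in OIS and 0.406 to 1.58 CPM (median 0.587) in OIS-shA1 (log2 fold change -1.89 ± 0.26 (SE), adjusted p = 1.38e-06). It passed the filter on low counts through OIS, and the size of its fall rests on OIS-shA1 values near the floor. ALDOC was 16.1 to 26.9 CPM (median 23.3) in OIS-shA1, below every library of OIS (log2 fold change -1.01 ± 0.083 (SE), adjusted p = 1.82e-10). PDK1 was 42.1 to 55.8 CPM (median 54.7) in OIS and 31.9 to 37.7 CPM (median 34.5) in OIS-shA1 (log2 fold change -0.59 ± 0.059 (SE), adjusted p = 8.61e-09), and SLC2A1 was 122 to 150.5 CPM (median 139) in OIS-shA1 (log2 fold change -0.40 ± 0.049 (SE), adjusted p = 3.05e-07). None of these 4 genes overlapped between the groups. EGLN1, LDHA, BNIP3, HK2, PGK1 and ENO1 also fell, by 0.15 to 0.32 on the log2 scale.

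CA12 and VEGFA went the other way. CA12 was 58.9 to 81.7 CPM (median 67.2) in OIS-shA1 (log2 fold change 0.52 ± 0.066 (SE), adjusted p = 4.98e-07). VEGFA was 160.2 to 215 CPM (median 196) there (log2 fold change 0.40 ± 0.05 (SE), adjusted p = 4.91e-07), so that OIS-shA1 was higher than OIS and OIS higher than Grow for both. LDHB was 391 to 491 CPM (median 431) in OIS and 463 to 525 CPM (median 500.1) in OIS-shA1 (log2 fold change 0.22 ± 0.042 (SE), adjusted p = 0.000151), with overlapping libraries. BNIP3L was 184 to 253 CPM (median 226) and 214 to 312 CPM (median 245) (log2 fold change 0.18 ± 0.065 (SE), adjusted p = 0.0277), and its call was lost without OIS-shA1 replicate 7 or 8 or OIS replicate 5 or 8 (0.13 to 0.17). CA9 and CA12, which encode related carbonic anhydrases, thus differed in direction, and CA12 made up 95% ± 2.78 of the pair in OIS-shA1 against 78.5% ± 4.87 in OIS.

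Cells with the HMGA1 shRNA were also compared after and before 4OHT. In OIS-shA1 against Grow-shA1, 21 members rose and 9 fell, beside 37.1% and 36% of genes (23 and 4 members with library sizes alone, beside 44.1% and 30.7% of genes). VEGFA was 39.8 to 72.9 CPM (median 48.2) in Grow-shA1, and its rise was 3.81-fold (log2 fold change 1.93 ± 0.089 (SE), adjusted p = 8.63e-17). CA12 (1.73 ± 0.091, adjusted p = 1.74e-15), ALDOC (1.18 ± 0.12, adjusted p = 9.19e-10) and HK2 (1.12 ± 0.044, adjusted p = 3.14e-18) rose next most, and SLC2A1 (-1.43 ± 0.058, adjusted p = 5.39e-18), P4HA1 (-0.51 ± 0.049, adjusted p = 4.02e-10), PKM (-0.42 ± 0.044, adjusted p = 2.18e-09) and PFKP (-0.26 ± 0.053, adjusted p = 8.22e-05) fell most. CA12, ALDOC and SLC2A1 had the levels given above for both groups. PKM was at 2976 to 3550 CPM (median 3211) in Grow-shA1 and 2166 to 2616 CPM (median 2379) in OIS-shA1, and PFKP at 342 to 448 CPM (median 362) and 262 to 337 CPM (median 309.6), so that the groups were separate for both. P4HA1 was at 544 to 734 CPM (median 584) in Grow-shA1 and 384 to 447 CPM (median 415) in OIS-shA1, and HK2 at 100.2 to 126 CPM (median 111) and 220.0 to 252 CPM (median 240.3). The calls of PFKL and HIF1A were lost by leaving out any of 8 and 2 of the 16 libraries (adjusted p up to 0.0896).

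The interaction term tests whether HMGA1 depletion acts differently in growing and senescent cells. It was called for 12 of 37 members, 7 higher and 5 lower, beside 12.2% and 11.4% of genes, and with library sizes alone for 3 higher and 9 lower, beside 6.39% and 24.9% of genes. Positive terms, in which depletion was relatively less negative or more positive in OIS, were those of SLC2A3 (0.48 ± 0.073, adjusted p = 2.63e-06), VEGFA (0.41 ± 0.11, adjusted p = 0.00567), BNIP3L (0.35 ± 0.088, adjusted p = 0.00312), PFKP, P4HA1, LDHB and GAPDH. SLC2A3 was 51 to 64.3 CPM (median 57.6) in Grow, 37.9 to 50.4 CPM (median 41.1) in Grow-shA1, 65.3 to 72.2 CPM (median 70.5) in OIS and 68.2 to 74.7 CPM (median 72.6) in OIS-shA1, so that its log2 fold change under the shRNA was -0.44 before 4OHT and 0.047 after it. Negative terms were those of CA9 (-1.04 ± 0.38, adjusted p = 0.0417), ALDOC (-0.39 ± 0.14, adjusted p = 0.0312), EGLN1, PFKFB3 and HK2. The term of GAPDH was lost by leaving out any of 22 of the 32 libraries (adjusted p up to 0.0837), that of CA9 by any of 16 (adjusted p up to 0.105), that of LDHB by any of 12, that of ALDOC by any of 5 and that of PFKFB3 by any of 4. The other 7 held without any 1 library. The count of negative terms became 2 or 3 without Grow replicate 8, Grow-shA1 replicate 5, OIS replicate 5 or 7, or OIS-shA1 replicate 7. PDK1 and SLC2A1, which fell in both states, had terms of -0.08 ± 0.11, adjusted p = 0.642 and 0.046 ± 0.073, adjusted p = 0.705.

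Genes of the same pathways outside the list were read from fixed lists. Of 18 other glycolysis genes (additional isozymes and side branches), 5 rose and 4 fell of 10 tested in OIS, beside 38.8% and 35.9% of genes. The largest rise was in HKDC1, a further hexokinase (3.48 ± 0.36, adjusted p = 1.08e-09). HKDC1 was lower in OIS-shA1 than in OIS (-0.997 ± 0.245, adjusted p = 0.00203). The largest fall in OIS was in ENO3, the muscle enolase (-0.61 ± 0.15, adjusted p = 0.000535). In OIS-v-v 5 rose and 1 fell of 9 tested, beside 22.7% and 23.2% of genes, led by PFKFB2 (1.33 ± 0.29, adjusted p = 0.00215). PFKFB2 also led in OIS-shA1 against Grow-shA1 (1.90 ± 0.18, adjusted p = 2.92e-10). HKDC1 was thus the largest called rise in neither. Each of these comparisons tested 9 genes of the list, against 10 in OIS, so this does not show a smaller rise of HKDC1. The pentose phosphate pathway, which makes NADPH from glucose-6-phosphate, had 8 genes, of which 1 rose and 3 fell of 8 tested in OIS. In OIS-shA1 against OIS 4 rose and 0 fell of 8 tested, beside 18.8% and 17.1% of genes. H6PD rose most there (0.45 ± 0.047, adjusted p = 1.38e-08). Of 11 genes for the entry of pyruvate into mitochondria, 5 rose and 4 fell of 10 tested in OIS, with the pyruvate carrier MPC1 at -0.58 ± 0.078, adjusted p = 1.65e-07 and the phosphatase PDP2 at 0.78 ± 0.14, adjusted p = 1.22e-05.

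Among 8 other components of the HIF pathway, 4 rose and 1 fell of 7 tested in OIS, beside 38.8% and 35.9% of genes. EPAS1, the alternative oxygen-regulated subunit HIF-2α, fell in both experiments (-0.68 ± 0.061, adjusted p = 5.7e-11 in OIS and -1.0 ± 0.11, adjusted p = 1.01e-05 in OIS-v-v), and CITED2, which competes for a HIF coactivator, rose in OIS-v-v (1.09 ± 0.095, adjusted p = 1.84e-06). Of 24 other HIF targets, 13 rose and 9 fell of 24 tested in OIS, beside the same shares of genes. In Grow-shA1 2 rose and 15 fell of 24 tested, beside 14.8% and 15.1% of genes. In OIS-shA1 against OIS 4 rose and 11 fell of 24 tested, beside 18.8% and 17.1% of genes. ANGPTL4, a secreted inhibitor of lipoprotein lipase, rose most in senescence (2.82 ± 0.077, adjusted p = 4.6e-23 in OIS and 2.61 ± 0.17, adjusted p = 1.83e-07 in OIS-v-v), whereas LOX, the collagen cross-linking oxidase, fell most in OIS (-3.64 ± 0.06, adjusted p = 9.33e-28). AK4, a mitochondrial adenylate kinase, fell most under the HMGA1 shRNA in growing cells (-1.01 ± 0.1, adjusted p = 1.26e-08), in OIS (-0.83 ± 0.095, adjusted p = 9.72e-08) and in H1299 (-0.33 ± 0.057, adjusted p = 0.000618). These lists held genes of both directions in OIS, as the 38 genes did.

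With C/EBPβ knocked down in senescent cells HK2 was lower than in OIS-v-v. Its levels overlapped those of Grow-v-v within replicates 1 to 3. Within replicates 4 and 5 they were higher, with means of 98.5 CPM in OIS-shCEBPB and 54.5 CPM in Grow-v-v. OIS-shCEBPB was not tested against Grow-v-v. In OIS-shCEBPB against OIS-v-v, 8 of 37 members fell and 1 rose, beside 8% of genes that fell and 9.09% that rose (7 and 2 members with library sizes alone, beside 5.48% and 13.3% of genes). With the replicate block 16 fell and 3 rose, beside 15% and 16.9% of genes. HK2 was at 79.9, 79.2, 72, 97.3 and 99.8 CPM in OIS-shCEBPB, against 179.5, 189.8, 168, 213 and 225 in OIS-v-v (log2 fold change -1.20 ± 0.10 (SE), adjusted p = 1.03e-05). Each library of OIS-shCEBPB was below every library of OIS-v-v, and HK2 fell from 40.1% ± 3.34 to 24.2% ± 2.13 of its pair. CA12 was at 12.8, 14.1, 12.8, 20.9 and 19.3 CPM (log2 fold change -0.97 ± 0.16 (SE), adjusted p = 0.00101). SLC16A3, which exports lactate, was at 819.9, 798, 859, 616 and 711 in OIS-v-v and 471, 470.3, 482, 524 and 521 in OIS-shCEBPB (log2 fold change -0.63 ± 0.086 (SE), adjusted p = 0.000352), and VEGFA was at 109, 109.9, 97.2, 157 and 167 (log2 fold change -0.61 ± 0.15 (SE), adjusted p = 0.0121). These 3 genes too were lower in every library than in OIS-v-v. ADM (-0.44 ± 0.082, adjusted p = 0.00276), HIF1A (-0.35 ± 0.068, adjusted p = 0.00371), ALDOA and GPI completed the falls, and the call of GPI was lost without OIS-shCEBPB replicate 1, 2 or 3 (-0.24 to -0.23).

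The member called higher was PDK3, at 2.2, 1.65, 2.68, 3.68 and 3.36 CPM in OIS-v-v and 3.56, 3.76, 3.83, 6.1 and 5.96 in OIS-shCEBPB (log2 fold change 0.76 ± 0.24 (SE), adjusted p = 0.0432). It was not called without OIS-shCEBPB replicate 2, 3, 4 or 5 or OIS-v-v replicate 1, 2 or 3, which left no higher member, while the block kept it at 0.77 (adjusted p = 0.00076). Within replicates 1 to 3, 24 of 36 members fell and 2 rose, beside 16% and 16.6% of genes. Within replicates 4 and 5, 9 fell and 8 rose, beside 11.3% and 13.2%. HK2 was at -1.23 in the first set and -1.17 in the second and SLC16A3 at -0.81 and -0.36, and these, CA12, VEGFA, ADM, HIF1A, ALDOA and GPI fell in each set, while PDK3 and SLC16A1 rose in each. BNIP3L changed sign, at -0.32 ± 0.055, adjusted p = 0.000163, in the first set and 0.20 ± 0.07, adjusted p = 0.0382, in the second. NDRG1 was at -0.58 ± 0.053, adjusted p = 6.91e-08, and 0.12 ± 0.072, adjusted p = 0.248. Outside the 38 genes, EPAS1 fell by 1.79 on the log2 scale (adjusted p = 2.64e-06) and BPGM, which makes 2,3-bisphosphoglycerate, was at -0.73 ± 0.069, adjusted p = 1.91e-05.

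**Figure D4:**
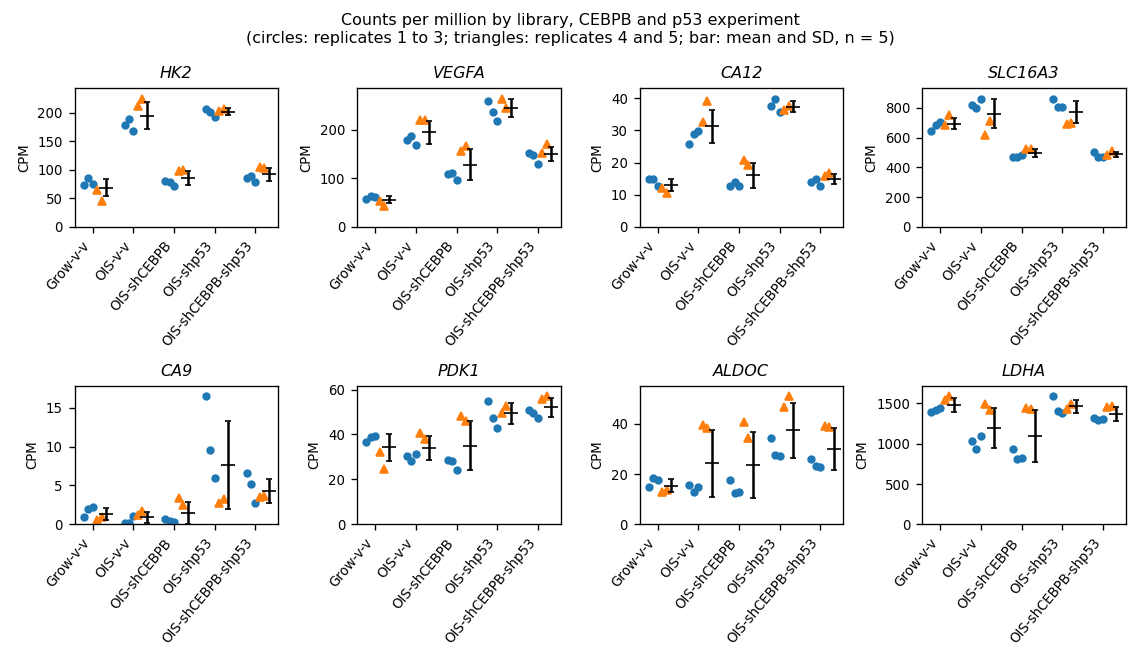
CPM of 8 members in each library of the C/EBPβ and p53 experiment, with replicates 1 to 3 as circles, replicates 4 and 5 as triangles and the mean and SD of all 5 beside them; each panel starts at 0. HK2, CA12 and SLC16A3 are lower in both groups with shCEBPB than in OIS-v-v, and ALDOC, LDHA and CA9 differ between the sets of replicates.

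With shp53, the members that were called rose. In OIS-shp53 against OIS-v-v, 7 of 37 rose and none fell, beside 2.47% of genes that rose and 1.97% that fell, and 22 of 37 members had an unadjusted p under 0.05, as did 19.8% of genes. DESeq2 called 14 higher and none lower, beside 4.19% and 3.96% of genes. The replicate block gave 22 higher and none lower, beside 12% and 10.7% of genes. The median log2 fold change of the members was 0.21, against -0.0018 over all genes. CA9 was at 0.169, 0.177, 1.11, 1.24 and 1.74 CPM in OIS-v-v and 16.5, 9.58, 5.93, 2.8 and 3.27 in OIS-shp53, which was higher in every library (log2 fold change 3.10 ± 0.63 (SE), adjusted p = 0.0163). Its counts were low, from 3 to 29 in OIS-v-v and from 51 to 394 in OIS-shp53. It therefore passed the filter on low counts through OIS-shp53, and the size of its rise rests on OIS-v-v values near the floor. PDK1 was at 30.6, 28.2, 31.4, 40.7 and 38 CPM in OIS-v-v and 54.7, 47.5, 42.8, 49.4 and 52.5 in OIS-shp53 (log2 fold change 0.55 ± 0.11 (SE), adjusted p = 0.0131). NDRG1, a stress-responsive gene of unclear biochemical role, was at 280.1, 265, 270.2, 219 and 245 and 503, 408, 378, 313 and 321 (log2 fold change 0.59 ± 0.12 (SE), adjusted p = 0.0195). BNIP3, a mitochondrial receptor for mitophagy, was at 91.5, 89.4, 97.4, 118 and 104 and 166, 135, 128, 117 and 123 (log2 fold change 0.42 ± 0.10 (SE), adjusted p = 0.0407), with overlap between the groups. PFKFB3 (0.37 ± 0.051, adjusted p = 0.00194), KDM3A (0.33 ± 0.071, adjusted p = 0.0229) and EGLN1 (0.25 ± 0.054, adjusted p = 0.0257) also rose.

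These counts depended on single libraries. The 7 calls became 3 without OIS-shp53 replicate 2, 4 without OIS-v-v replicate 1 or 3, and 11 without OIS-v-v replicate 5, and those that no omission removed were CA9, PDK1 and PFKFB3. They also differed between the sets of replicates. Within replicates 1 to 3, 27 members rose and 1 fell, beside 17.6% and 16.5% of genes. Within replicates 4 and 5, 6 rose and none fell, beside 3.05% and 2.27%. CA9 was at 4.48 ± 0.40, adjusted p = 4.55e-09, in the first set and 1.02 ± 0.27, adjusted p = 0.0379, in the second. In the first set its mean was 0.484 CPM in OIS-v-v and 10.7 in OIS-shp53, so it passed the filter through OIS-shp53. The size of that rise rests on OIS-v-v values near the floor. LDHA was at 0.52 ± 0.051, adjusted p = 2.09e-08, against 0.011 ± 0.061, adjusted p = 0.945. ALDOC was at 1.05 ± 0.09, adjusted p = 2.06e-09, against 0.33 ± 0.084, adjusted p = 0.0361. PFKFB3 had nearly the same value in both (0.36 and 0.38), and CA9, PDK1, PFKFB3, NDRG1, SLC2A3 and ALDOC rose in each set. TIGAR, which lowers fructose-2,6-bisphosphate and is no member, fell (-0.61 ± 0.078, adjusted p = 0.001).

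**Figure D5:**
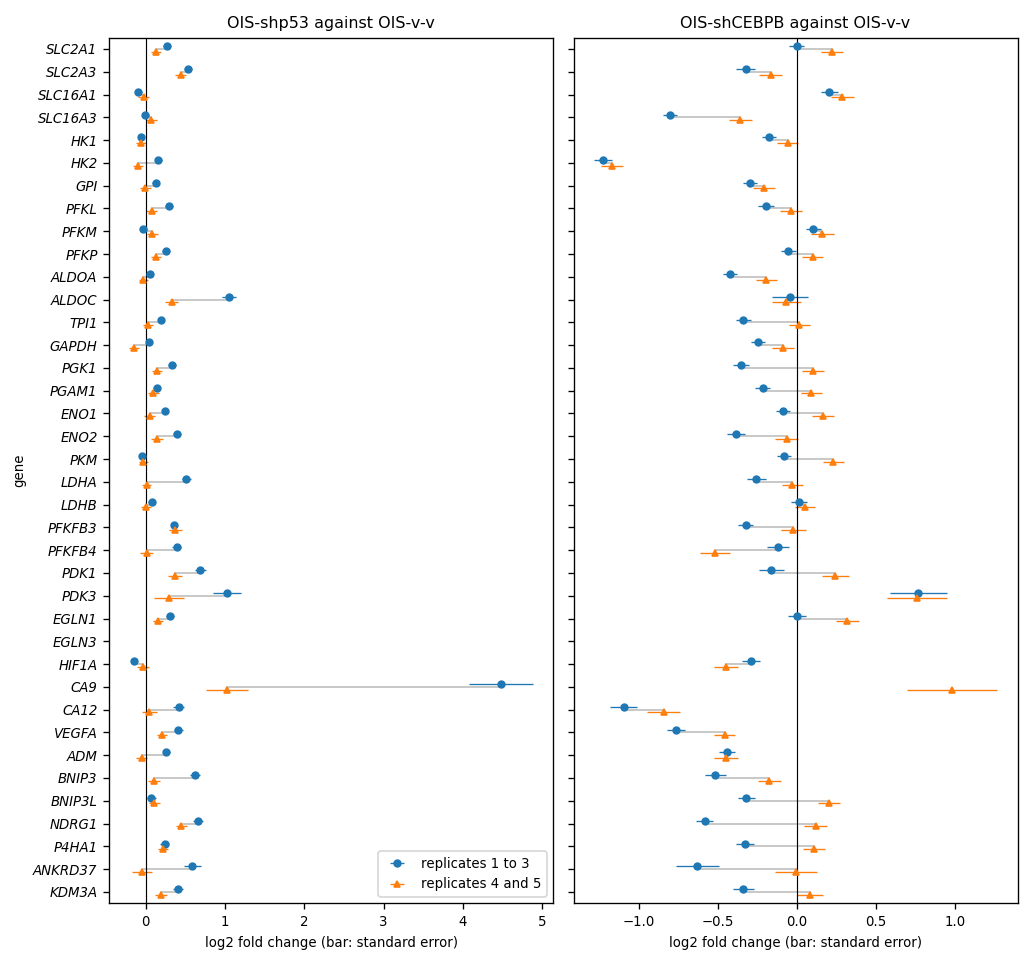
Log2 fold change with standard error of each member within replicates 1 to 3 (blue circles) and within replicates 4 and 5 (orange triangles), for shp53 (left) and shCEBPB (right) against OIS-v-v; CA9 was not tested in replicates 1 to 3 of the latter, nor EGLN3 in either. With shp53 most members lie further right in replicates 1 to 3, most of all CA9, and with shCEBPB HK2 and CA12 lie far left in both sets.

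With both shRNAs the members split. In OIS-shCEBPB-shp53 against OIS-v-v, 8 rose and 10 fell, beside 17.1% and 16.5% of genes (12 and 8 members with library sizes alone, beside 24.9% and 10.2% of genes), and with the block 13 rose and 12 fell, beside 21.9% and 21.4%. HK2 was at 85.5, 88.8, 78.8, 105 and 102 CPM (log2 fold change -1.10 ± 0.096 (SE), adjusted p = 5.04e-06) and CA12 at 14, 15, 12.6, 15.8 and 16.7 (log2 fold change -1.09 ± 0.11 (SE), adjusted p = 1.89e-05), both lower in every library than in OIS-v-v. SLC16A3 was at 501, 472, 470.4, 485 and 508 (log2 fold change -0.66 ± 0.085 (SE), adjusted p = 0.000106). HIF1A was at 322, 337, 303, 353 and 301 in OIS-v-v and 227, 232, 204, 231 and 229 with both shRNAs, a fall in every library (log2 fold change -0.54 ± 0.059 (SE), adjusted p = 3.05e-05), while in OIS-shp53 it was at -0.10 ± 0.06, adjusted p = 0.399. CA9 was at 6.58, 5.2, 2.68, 3.5 and 3.69 (log2 fold change 2.27 ± 0.46 (SE), adjusted p = 0.00248), PDK3 at 4.51, 5.74, 4.26, 6.09 and 5.48 (log2 fold change 0.93 ± 0.20 (SE), adjusted p = 0.00361) and PDK1 at 51, 49.4, 47.5, 55.8 and 57.1 (log2 fold change 0.61 ± 0.099 (SE), adjusted p = 0.00054). These 3 genes were higher in every library than in OIS-v-v. CA9 passed the filter on low counts through the group with both shRNAs, and its OIS-v-v values lay near the floor. EGLN1 was at 82.2, 79.7, 80.9, 83.7 and 81.7 in OIS-v-v and 103, 99.7, 95.6, 109 and 117 with both (log2 fold change 0.35 ± 0.057 (SE), adjusted p = 0.000623). The calls of GPI, LDHB and KDM3A were each lost by leaving out any of 7 of the 10 libraries (adjusted p up to 0.0937). Within replicates 1 to 3, 15 rose and 13 fell, beside 27.3% and 26.4% of genes, and within replicates 4 and 5, 7 rose and 11 fell, beside 15.1% and 13.5% of genes.

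HK2, CA12 and SLC16A3 thus had values close to those with shCEBPB alone, and CA9 and PDK1 were higher as with shp53 alone; the 3 comparisons share the OIS-v-v libraries. The interaction of shCEBPB with shp53, which tests whether the combined effect departs from the sum on the log2 scale, was called for no member by edgeR or by DESeq2, and for 0.0216% of genes in each direction; no member had an unadjusted p under 0.05, and 4.92% of the 13873 genes did. Within replicates 4 and 5 it was called lower for SLC2A3 (-0.35 ± 0.088, adjusted p = 0.0368), BNIP3L (-0.40 ± 0.082, adjusted p = 0.00743), NDRG1 (-0.48 ± 0.086, adjusted p = 0.00237) and P4HA1 (-0.34 ± 0.077, adjusted p = 0.018), beside 1.3% of genes lower and 0.825% higher, and 12 members had an unadjusted p under 0.05, as did 14.1% of genes. Within replicates 1 to 3 it was called for no member, beside 1.89% of genes lower and 1.43% higher, and 6 members had an unadjusted p under 0.05, as did 15.1% of genes. Beside the counts in the fixed lists, 9.09% of all genes were higher and 8% lower with shCEBPB. These shares were 2.47% and 1.97% with shp53, and 17.1% and 16.5% with both. The other HIF pathway components had 3 of 7 tested lower with shCEBPB and 4 of 7 lower with both, where EPAS1 was at -2.38 ± 0.11, adjusted p = 2.83e-08. The other HIF targets had 3 higher and 2 lower of 24 with shCEBPB, 1 higher with shp53, and 3 higher and 2 lower with both, where ANGPTL4 was at -1.25 ± 0.079, adjusted p = 3.13e-07. Other glycolysis genes had 2 higher and 2 lower of 9 with shCEBPB, 1 and 1 with shp53, and 4 lower with both. Of the genes for pyruvate entry 1 of 10 fell with shCEBPB and 2 fell with both.

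H1299 cells differed from IMR90 cells in which isozymes they expressed, a description across separately normalised tables, cell types and oxygen levels. LDHB made up 77.7% ± 1.26 of the lactate dehydrogenase pair, against 22% ± 0.91 in Grow. ENO2 was 0.9% ± 0.116 of its pair and ALDOC 0.0766% ± 0.0182, and SLC16A1 43.1% ± 2.04 against 9.57% ± 0.832 in Grow. P4HA1 was at 8.63 ± 0.781 RPKM, against 217 ± 11.4 in Grow and 78.8 ± 23.6 in Grow-v-v.

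With the HMGA1 shRNA in H1299, ADM and PKM rose and few other members changed. Of 35 tested, 4 rose and 4 fell, beside 8.65% and 6.93% of genes, and the members' median log2 fold change was -0.032. The summed epithelial markers were lower too, at 815 to 1139 CPM in H1299 and 631 to 718 in H1299-shA1, and their part in these values was not tested. ADM was 23.8 to 28.1 CPM (median 25.6) in H1299 and 29.8 to 42.3 CPM (median 31.6) in H1299-shA1, without overlap (log2 fold change 0.41 ± 0.076 (SE), adjusted p = 0.00093). PKM was 3288 to 3639 CPM (median 3403) and 3725 to 4171 CPM (median 3993), also without overlap (log2 fold change 0.21 ± 0.038 (SE), adjusted p = 0.000708). SLC2A1 was 57.7 to 68.5 CPM (median 62.3) and 60.6 to 77.2 CPM (median 74.8) (log2 fold change 0.20 ± 0.057 (SE), adjusted p = 0.0206), and PFKP 218 to 253 CPM (median 227) and 233 to 281 CPM (median 264) (log2 fold change 0.16 ± 0.049 (SE), adjusted p = 0.0288), and in both genes some libraries overlapped. BNIP3L was 142 to 166 CPM (median 156) and 119 to 164 CPM (median 132) (log2 fold change -0.18 ± 0.059 (SE), adjusted p = 0.0382). TPI1 was 705 to 878 CPM (median 781) and 636 to 747 CPM (median 696) (log2 fold change -0.18 ± 0.052 (SE), adjusted p = 0.0248). KDM3A, a histone demethylase, was 134 to 145 CPM (median 139) and 121 to 132 CPM (median 130.0) (log2 fold change -0.11 ± 0.035 (SE), adjusted p = 0.0418). These 3 fell, with overlapping libraries for BNIP3L and TPI1, as did ALDOC, whose mean was under 1 CPM (-0.72 ± 0.23, adjusted p = 0.0405).

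Only ADM and PKM kept their calls whichever library was left out. The higher count became 2 without H1299 replicate 2 or 3 or H1299-shA1 replicate 2, 4 or 5. The lower count became 0 without H1299 replicate 2, 5 or 7 or H1299-shA1 replicate 4 or 5, 1 without H1299 replicate 3 or H1299-shA1 replicate 2 or 6, and 7 without H1299-shA1 replicate 3. ADM thus rose with the HMGA1 shRNA in growing IMR90 cells and in H1299, and was at 0.15 ± 0.071, adjusted p = 0.102 in OIS. SLC2A1, which fell with it in IMR90 cells, rose in H1299, and PDK1 was at -0.071 ± 0.079, adjusted p = 0.599 there, against -0.51 in Grow-shA1 and -0.59 in OIS-shA1. The difference between the cell lines was not tested. Of the 24 other HIF targets, 4 rose and 3 fell in H1299-shA1, beside 8.65% and 6.93% of genes, and of 10 other glycolysis genes 1 rose. Among these HIF targets STC1, a secreted glycoprotein, was at 0.68 ± 0.11, adjusted p = 0.000227.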

How the data were processed

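Polyadenylated RNA was measured in 70 libraries of 11 groups, deposited in 3 tables of raw counts per gene. Per the labels and the methods, the authors mapped the reads on hg19 using STAR, and featureCounts then counted them in GENCODE exons (1.5.2 in the file headers of the HMGA1 and H1299 tables, without strand, with fragments counted in the HMGA1 table; no header gives the settings of the C/EBPβ and p53 table). The labels name 2 stranded kits and 2 sequencers, not assigned to libraries, and 6 biological replicates per condition, where the tables hold 8, 5, 7 or 6 libraries per group. P-values measure the spread between these libraries.

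Each comparison used its 2 groups in edgeR 4.0.16 (R 4.3.3), with TMM factors, filterByExpr (minimum count 10) and the quasi-likelihood test. A gene was called where its p, adjusted by Benjamini-Hochberg over all genes tested, was under 0.05. The SE is the absolute log2 fold change over the square root of F. Interactions were fitted over their 4 groups. CPM were scaled by TMM factors computed across the whole of each table, and medians over all genes are those of the genes tested. The fits were tested on simulated counts. Python 3.11.15, pandas 2.3.3, numpy 2.4.6 and matplotlib 3.10.9 made summaries and figures. Promoters are those of RefSeq (GRCh38.p14), matched by symbol for 33 of the 38 members, and no coordinates were carried over from hg19.

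Full values go to the 4 members with the largest called rise and fall in a comparison with a mean of at least 1 CPM, to isozyme sets, to members called in both comparisons of OIS with growth and, from each other list, to the called gene with the largest rise and fall. Members and lists were chosen with earlier results of these data known. In the C/EBPβ and p53 experiment, same-numbered libraries deviated together (correlation of deviations from group means 0.133 to 0.542, each pair over 0.1). The replicate block pairs them by number. Libraries of different number reached 0.528, 0.549 and 0.452 with shCEBPB, shp53 and both, beside 0.517, 0.542 and 0.403 for the same number. These correlations therefore do not separate pairing by number from the split of replicates 1 to 3 from 4 and 5. Alternatives were other scalings, DESeq2 1.42.0, other filters and thresholds, the replicate block, all groups in 1 fit and each library left out. The fits within replicates 1 to 3 and 4 and 5 were chosen after seeing the data. The RNA level of the gene targeted by shp53 is not reported here.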

Additional observations from a re-analysis of the deposited data

Results flagged for a closer look

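Of 398 sets of values (1 member in 1 group of 4 to 10 libraries), 30 held a library whose gap to its neighbour, as a share of the group's range, passed Dixon's 95% critical value, in 21 members. Chance alone flags about 1 group in 20. Grow-shA1 replicate 5 had GPI at 343 CPM (group median 283), PFKP at 448 CPM (group median 362), PFKFB3 at 189 CPM (group median 153), ALDOA at 1547 CPM (group median 1188), ALDOC at 16.4 CPM (group median 9.6), ENO1 at 2246 CPM (group median 1820.0) and CA12 at 29.9 CPM (group median 19.6), above the rest of its group. OIS replicate 4 had LDHB at 491 CPM (group median 431), SLC16A1 at 124 CPM (group median 105), BNIP3 at 172 CPM (group median 129) and ANKRD37 at 6.2 CPM (group median 4.37), above the rest of its group, and PFKFB3 at 138 CPM (group median 189), below the rest of its group. Grow-shA1 replicate 6 had LDHB at 375 CPM (group median 326), SLC16A1 at 96.7 CPM (group median 81.5) and P4HA1 at 734 CPM (group median 584), above the rest of its group. H1299-shA1 replicate 7 had PGK1 at 861 CPM (group median 714) and BNIP3L at 164 CPM (group median 132), above the rest of its group, and PFKFB3 at 65.2 CPM (group median 80.9), below the rest of its group. OIS-shA1 replicate 7 had SLC16A1 at 124 CPM (group median 104), above the rest of its group, and TPI1 at 555 CPM (group median 647), below the rest of its group. Grow replicate 8 had BNIP3 at 103 CPM (group median 125), below the rest of its group. Grow replicate 4 had ANKRD37 at 3.11 CPM (group median 1.98), above the rest of its group. H1299 replicate 4 had EGLN1 at 91.2 CPM (group median 104), below the rest of its group. Grow-v-v replicate 5 had SLC16A1 at 56.7 CPM (group median 69.3), below the rest of its group. Grow replicate 7 had ADM at 40.9 CPM (group median 47.4), below the rest of its group. OIS-shA1 replicate 4 had KDM3A at 58.2 CPM (group median 66.5), below the rest of its group. OIS-shCEBPB replicate 5 had PFKFB4 at 51.3 CPM (group median 39.7), above the rest of its group. OIS-shCEBPB-shp53 replicate 3 had HIF1A at 204 CPM (group median 229), below the rest of its group. OIS-shp53 replicate 1 had EGLN1 at 110.3 CPM (group median 94.5), above the rest of its group. OIS-v-v replicate 5 had PFKM at 119.9 CPM (group median 109), above the rest of its group. Several members were flagged in Grow-shA1 replicates 5 and 6 and in OIS replicate 4, the last with the lowest depth (1903607 counts).

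The effect of the HMGA1 shRNA differed between growing and senescent cells, by the interaction term of edgeR (adjusted p under 0.05), for 12 members. The log2 terms were positive for SLC2A3 (0.48), VEGFA (0.41), BNIP3L (0.35), PFKP (0.27), P4HA1 (0.22), LDHB (0.17), GAPDH (0.16) and negative for CA9 (-1.04), ALDOC (-0.39), EGLN1 (-0.22), PFKFB3 (-0.21), HK2 (-0.19). With library sizes alone 3 terms were positive and 9 negative. The terms of GAPDH, CA9, LDHB, ALDOC and PFKFB3 were lost by leaving out any of 22, 16, 12, 5 and 4 of the 32 libraries.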

How the results depend on the processing

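Counts of members are written as higher/lower and only where they moved by over 1.5 times, with the share of all genes under the same rule in parentheses where it is not given beside the result itself. With a fold change of at least 1.5 added, OIS against Grow gave 10/2 (17.3%/19.2%), Grow-shA1 against Grow 0/2 (2.61%/3.03%), OIS-shA1 against OIS 0/3 (3.35%/4.01%), OIS-shA1 against Grow-shA1 11/1 (15.8%/18.6%), OIS-v-v against Grow-v-v 11/1 (12.4%/15%), shCEBPB 4 lower (3.14%), shp53 2 higher (1.18%), both shRNAs 3/3 (7.98%/5.39%), H1299-shA1 0/1 (1.65%/0.761%) and the interaction of shA1 with OIS 0/1 (2.5%/3.14%). With adjusted p under 0.01, Grow-shA1 had 13 lower (10.2%), shCEBPB 0 higher (5.11%), shp53 1 higher (0.867%), both shRNAs 4 higher (10.6%), H1299-shA1 2/0 (4.23%/3.17%) and the interaction 3/0 (7.7%/6.68%). With library sizes alone, OIS had 4 lower, OIS-shA1 against OIS 22 lower, OIS-shA1 against Grow-shA1 4 lower, shCEBPB 2 higher and the interaction 3/9. With the replicate block, OIS-v-v had 4 lower, shCEBPB 3/16, shp53 22 higher, both shRNAs 13 higher and H1299-shA1 7 lower (7.77%). All groups in 1 fit gave 6 lower in OIS-v-v (27.2%). Replicates 1 to 3 alone gave 9 lower in OIS-v-v, 2/24 with shCEBPB, 27/1 with shp53 and 15 higher with both. Replicates 4 and 5 alone gave 8 higher with shCEBPB and 4 lower in the interaction of shCEBPB with shp53. A term for these sets gave 5 lower in OIS-v-v (27.3%), 3/20 with shCEBPB (18.1%/16%), 24 higher with shp53 (13.8%) and 14 higher with both (24%). DESeq2 gave 14 higher with shp53. The cause of these shifts was not tested, except that fewer libraries or a stricter threshold were set by construction.

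In the HMGA1 and H1299 tables same-numbered libraries did not deviate together throughout (correlations from -0.130 to 0.166 and from -0.145 to 0.288), so the block there pairs numbers only; beyond H1299-shA1 it moved no count of those tables by over 1.5 times. Leaving out 1 library gave ranges of 18 to 22/9 to 9 for OIS, 2 to 3/17 to 22 for Grow-shA1, 3 to 5/10 to 14 for OIS-shA1 against OIS, 20 to 22/8 to 9 for OIS-shA1 against Grow-shA1, 15 to 18/2 to 4 for OIS-v-v, 0 to 1/7 to 9 for shCEBPB, 3 to 11/0 for shp53, 6 to 9/9 to 10 for both shRNAs, 2 to 4/0 to 7 for H1299-shA1, 5 to 8/2 to 6 for the shA1 interaction and 0/0 for that of shCEBPB with shp53. For single members, 9001 values kept direction and side of the threshold, 292 changed sign without a call in either fit, 300 lost a call and 298 gained one. A sign changed with a call in 7, at log2 0.12 (PGK1), 0.15 (PGAM1), 0.028 (LDHA) and 0.16 (PDK1) in OIS with library sizes alone, 0.47 (PDK1) in OIS-v-v within replicates 4 and 5, -0.17 (HIF1A) in OIS-v-v within replicates 1 to 3 and 0.20 (BNIP3L) with shCEBPB within replicates 4 and 5. The low counts of CA9 and ALDOC limit their precision, and EGLN3 was too low to test.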
